A study of Mus musculus with 4 samples.

Results

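The genes described here carry water, sodium and potassium across the membranes of kidney epithelial cells. They are 9 of the 22063 genes listed in the count table: the aquaporins *Aqp1*, *Aqp3* and *Aqp11*, the sodium pump subunits *Atp1b1* and *Atp1b3*, the inward rectifier potassium channels *Kcnj2*, *Kcnj15* and *Kcnj16*, and the two-pore potassium channel *Kcnk5*. The genes were chosen by symbol with their measured levels and changes in these same libraries known, so their values are a description and carry no test. Of the 9 genes, 8 had at least 1 count and 7 passed the filter on low counts, which removed *Aqp11* and *Kcnj15*.

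The RNA came from TKPTS cells, a mouse line of proximal tubule epithelium that the sample labels call TKPT, and the libraries fall into 2 groups of 2. The control libraries, si-NC replicates 2 and 3, have the genotype label WT and a scrambled siRNA. The libraries labelled si-*Itgb6*, replicates 1 and 3, have the genotype label *Itgb6* knockdown and were transfected with an siRNA against *Itgb6*, the integrin β6 subunit. Every library was from cells kept for 24 h in 1% O2 and then for 12 h in normal oxygen, so no library of cells without hypoxia enters the comparison, and the line stands for a single source of cells. The comparison asks what differed in hypoxic proximal tubular cells when *Itgb6* was targeted.

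Sodium reabsorption by the proximal tubule is driven by the Na,K-ATPase of the basolateral membrane, which moves sodium out of the cell and potassium in. Its catalytic α subunit needs a β subunit to fold and to reach the membrane. Potassium that enters through the pump leaves again through potassium channels, which also set the membrane voltage, and water follows the reabsorbed solute through aquaporins.

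The 4 libraries held 15435087 to 17220285 counts, and 11727 genes were tested. Levels are given as CPM, the count of a gene scaled to the size of its library after normalization, which compares libraries within a gene, or as the authors' FPKM, which is per length and compares genes. Replicates differed by more than sampling noise, with a chi-square of 3.21 per gene between the si-NC libraries and 4.08 between those labelled si-*Itgb6*. The labels do not say that replicates were separate cultures, so p-values measure the spread between these samples, which may be technical. *Itgb6* itself stood at 17.5 and 16.4 CPM in si-NC replicates 2 and 3 and at 18.0 and 15.8 CPM in the libraries labelled si-*Itgb6*. Its log2 fold change was -0.0051 (SE 0.13, 95% interval -0.27 to 0.26, edgeR adjusted p = 0.991), so the knockdown was not visible in this transcript and each direction below is that of the labels. The paper reports that the siRNA lowered αvβ6 protein on western blot in hypoxic TKPTS cells, and that its efficiency was also checked by qPCR. Whether those cells were the ones sequenced is not stated. The authors state that samples were optimized after a cluster analysis, and how libraries were picked is not described further in the sources used here.

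The labelled cell type was checked against marker genes. Of 10 proximal tubule markers, *Slc34a1*, *Slc5a2*, *Slc5a12*, *Slc22a6* and *Slc22a8* were at 0 in all 4 libraries, and the summed level of the list was 5.95 to 7.65 CPM per library. The proximal tubule regulator *Hnf4a* had 0 or 1 counts. The epithelial markers *Epcam*, *Cdh1*, *Krt8* and *Krt18* summed to 2432 and 2477 CPM in si-NC and to 2232 and 2288 CPM in the libraries labelled si-*Itgb6*. *Krt8*, a keratin of simple epithelia, was lower in the latter by a log2 fold change of -0.20 (SE 0.046, edgeR adjusted p = 0.00881). For *Epcam*, *Cdh1* and *Krt18* the log2 fold change was -0.15, -0.14 and -0.029, with edgeR adjusted p-values of 0.0783, 0.117 and 0.794. The macrophage list summed to 132 and 141 CPM in si-NC against 121 and 127 CPM, nearly all of it from *Cd68* and *Csf1r*, while *Adgre1* had at most 1 count and *Ptprc* at most 6. The part of these differences in the results below was not tested. In bulk RNA, fewer cells of a type and less RNA per cell cannot be told apart.

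The sequences before 4 of the genes are shown because these genes have the largest log2 fold changes of the 7 genes that passed the filter, or the opposite directions of the pump subunits. They are the 250 bases upstream of the RefSeq start, read 5′ to 3′ on the gene's strand from the RefSeq promoter table (GRCm38.p6), in which all 9 genes were found. They lie at chr1:164458356-164458605 (minus strand) for *Atp1b1*, chr9:96364432-96364681 (minus strand) for *Atp1b3*, chr11:111065914-111066163 (plus strand) for *Kcnj2* and chr6:55336049-55336298 (plus strand) for *Aqp1*. Capitals mark matches to the motifs searched, on either strand.
Atp1b1: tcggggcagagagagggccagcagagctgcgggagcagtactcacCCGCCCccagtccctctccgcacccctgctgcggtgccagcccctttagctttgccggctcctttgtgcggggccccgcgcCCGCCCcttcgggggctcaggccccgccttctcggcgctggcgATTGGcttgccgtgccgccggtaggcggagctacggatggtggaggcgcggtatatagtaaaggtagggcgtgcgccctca
Atp1b3: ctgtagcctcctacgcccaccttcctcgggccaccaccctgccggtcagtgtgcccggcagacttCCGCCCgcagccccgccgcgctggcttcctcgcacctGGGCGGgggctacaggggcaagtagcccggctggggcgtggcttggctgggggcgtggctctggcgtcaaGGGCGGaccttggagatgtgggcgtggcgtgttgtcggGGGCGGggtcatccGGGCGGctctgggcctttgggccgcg
Kcnj2: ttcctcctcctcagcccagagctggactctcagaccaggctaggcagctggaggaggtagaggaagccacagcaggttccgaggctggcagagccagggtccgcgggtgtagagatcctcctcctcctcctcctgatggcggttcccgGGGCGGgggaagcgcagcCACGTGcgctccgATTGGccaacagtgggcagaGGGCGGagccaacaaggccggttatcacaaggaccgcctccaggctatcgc
Aqp1: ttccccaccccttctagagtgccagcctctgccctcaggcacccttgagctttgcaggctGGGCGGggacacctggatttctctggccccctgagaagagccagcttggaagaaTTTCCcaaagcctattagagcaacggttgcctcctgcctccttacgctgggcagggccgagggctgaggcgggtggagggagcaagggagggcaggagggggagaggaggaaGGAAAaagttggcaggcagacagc

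The motifs searched were the TATA box (TATAAA), the GC box (GGGCGG), the CCAAT box (CCAAT) and ACGTG, 1 form of the core of hypoxia response elements. The core of sites for the TEAD factors (GGAATG) and that for the tonicity factor NFAT5 (GGAAA) were searched too. Other forms of the hypoxia core were not searched, so a window without ACGTG may still hold one. The pump subunits both had GC boxes, 2 before *Atp1b1* and 5 before *Atp1b3*, and the *Atp1b1* window also held a CCAAT box at positions -81 to -77 from the start. The *Kcnj2* window held 2 GC boxes, a CCAAT box and an ACGTG core that reads on both strands, so that its 2 matches overlap. The *Aqp1* window held 1 GC box and 2 NFAT5 cores. Over the 9 genes a GC box was found in 6 windows, against 32.8% of all 32841 windows of this length. The NFAT5 core was found in 4 of 9, against 55.6%, and the CCAAT box in 2 of 9, against 33.9%. The ACGTG core was found before *Kcnj2* alone of the 9 (16.6% of all windows), the TATA box before *Aqp3* alone (12.4%), and the TEAD motif in no window of the 9 (12.6%). The windows of *Atp1b3* and *Atp1b1* were 73.6% and 70.4% G and C, that of *Kcnj16* was 42.8%, and the median over all windows was 52.4%. These matches are letters in a window and say nothing of binding.

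Ranked by FPKM, the genes spanned from pump subunits to a channel with no reads. The mean over the 4 libraries was 57.9 FPKM for *Atp1b1*, 33.0 for *Atp1b3* and 12.2 for *Aqp1*, and the ranges of these 3 genes did not overlap. *Aqp3* and *Kcnk5* followed at 3.99 and 3.26 FPKM with overlapping ranges. *Kcnj16*, *Kcnj2* and *Aqp11* stood at 0.413, 0.227 and 0.21 FPKM, again with overlapping ranges, and *Kcnj15* was at 0.

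**Figure D1:**
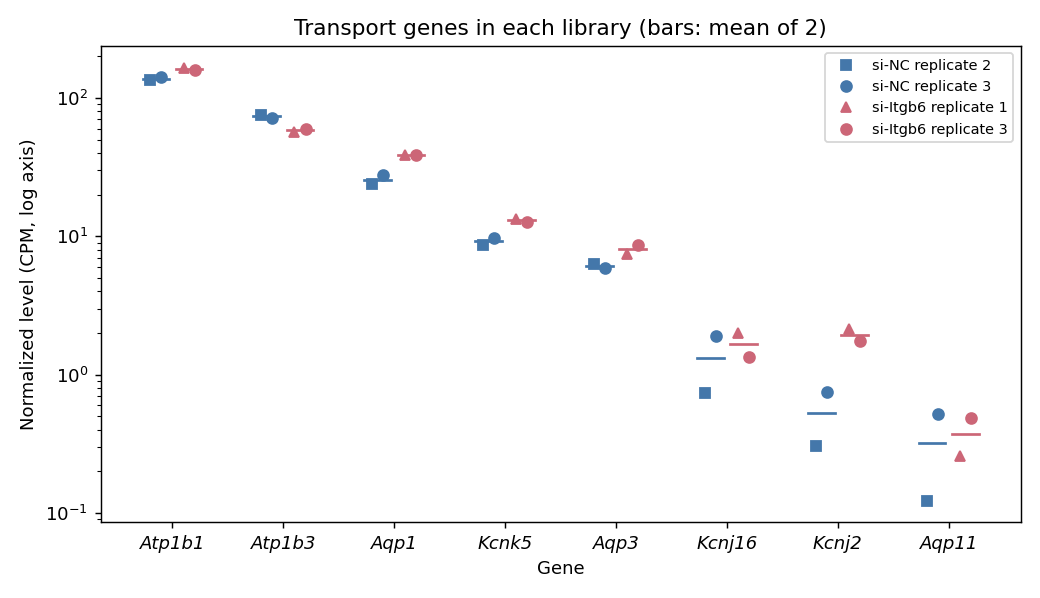
Normalized level in CPM (log axis) of the 8 genes with a count, for si-NC replicates 2 and 3 and the libraries labelled si-Itgb6 replicates 1 and 3; each symbol is 1 library and each bar the mean of 2. CPM is not per length, so groups are to be compared within a gene; the groups are apart for 6 genes and overlap for Kcnj16 and Aqp11.

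Among the 7 genes that passed the filter, 6 were higher and *Atp1b3* was lower in the libraries labelled si-*Itgb6*, with a median log2 fold change of 0.41. The median over all genes tested was 0.00017. The groups did not overlap for 6 of the 7, where 49.2% of all genes tested did not overlap. In the fit over all genes the adjusted p of edgeR was under 0.05 for 1 lower gene (*Atp1b3*) and 3 higher genes (*Aqp1*, *Atp1b1* and *Kcnj2*), beside 2.52% of all genes tested called lower and 2.11% called higher. By the thresholds named in the study, which are a fold change over 1.2 with a p under 0.05 before adjustment, 1 was lower (*Atp1b3*) and 4 were higher (*Aqp1*, *Aqp3*, *Kcnj2* and *Kcnk5*), beside 5.2% and 4.37% of all genes. *Kcnj2* stands in both counts, but of the si-NC libraries only replicate 3 held at least 10 counts, so it passed the filter, which asks for about 10 counts in 2 libraries, through the group where it was high. As the genes were selected on this contrast, nothing is read from these shares.

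*Aqp1*, the constitutive water channel of the proximal tubule, was the main aquaporin of these cells. The gene lies at chr6:55336432-55348555 on the plus strand. It had 23.7 and 27.6 CPM in si-NC replicates 2 and 3 and 38.8 and 38.4 CPM in replicates 1 and 3 labelled si-*Itgb6*. Both libraries of the latter group lay above both controls, and the mean level was 25.7 ± 2.75 CPM (SD, n = 2) against 38.6 ± 0.269 CPM (SD, n = 2). This is 1.503-fold, a log2 fold change of 0.59 (SE 0.10, 95% interval 0.38 to 0.80).

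*Aqp3* encodes an aquaglyceroporin that passes glycerol as well as water and is best known in the basolateral membrane of collecting duct principal cells. The gene lies at chr4:41092722-41098183 on the minus strand. Its level was 6.25 and 5.85 CPM in si-NC replicates 2 and 3 and 7.49 and 8.63 CPM in the libraries labelled si-*Itgb6*. The groups did not overlap, but the gap between the highest control and the lowest of the other group was small beside that of *Aqp1*. The log2 fold change was 0.41 (SE 0.20, 95% interval 0.013 to 0.82), or 1.33-fold. *Aqp2*, the vasopressin-regulated channel that defines principal cells, was at 0 in all 4 libraries. The 5 principal cell markers summed to 1.78 and 3.13 CPM in si-NC and to 3.68 and 2.43 CPM in the other group, so their summed levels overlapped between the groups.

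*Aqp11*, an aquaporin of the endoplasmic reticulum whose loss gives cystic kidneys in mice, lies at chr7:97724006-97738289 on the minus strand and was near the limit of detection. Its counts in si-NC were 2 (replicate 2) and 9 (replicate 3), against 4 and 8 in the libraries labelled si-*Itgb6*. The groups overlapped. The deposited FPKM of 0.033 and 0.14 in si-NC against 0.174 and 0.493 do not follow these counts, because the length that the authors' values imply changed from 3740 and 3733 bases in si-NC to 1489 and 972 bases in the other group. For the chosen genes with counts other than *Aqp11*, the implied length differed by at most 1.006-fold between libraries.

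Summed over the aquaporin family of 12 genes, the FPKM was 13.3 and 14.6 in si-NC and 19.5 and 20.9 in the libraries labelled si-*Itgb6*. *Aqp1* made up 68.1% and 72.2% of it in si-NC and 76.1% and 69.2% in the other group, so its share overlapped between the groups although the sum did not. *Aqp3* gave 26.7% and 22.7% against 21.9% and 23.1%. No other aquaporin passed the filter, and the highest of them by FPKM was *Aqp5*, with 8, 7, 1 and 14 counts in the 4 libraries.

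The pump subunits differed between the groups in opposite directions. *Atp1b1* (chr1:164437109-164458355, minus strand) encodes β1, the main β subunit of kidney tubules. It had 134 and 141 CPM in si-NC replicates 2 and 3 and 166 and 158 CPM in the libraries labelled si-*Itgb6*. Both of the latter were above both controls, with means of 137 ± 4.79 and 162 ± 5.46 CPM (SD, n = 2 each). The difference was modest, at 1.18-fold, with a log2 fold change of 0.23 (SE 0.062, 95% interval 0.11 to 0.36). Exons of *Atp1b1* overlap those of *Nme7* on the opposite strand, and in 3 libraries its estimate was no whole number. Without strand, reads that lie in the overlapping exons of the 2 genes cannot be told apart. *Nme7* had 515, 517.71, 473.44 and 493.5 counts in the same order of libraries, with a log2 fold change of -0.024 (SE 0.10, edgeR adjusted p = 0.937).

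*Atp1b3* (chr9:96332655-96364442, minus strand) encodes β3, another β subunit of the pump. It had 75.3 and 71.7 CPM in si-NC replicates 2 and 3 and 56.4 and 59.9 CPM in the libraries labelled si-*Itgb6*. Here both libraries of the latter group lay below both controls. The means were 73.5 ± 2.52 and 58.1 ± 2.47 CPM (SD, n = 2 each), so si-NC was 1.26-fold above, with a log2 fold change of -0.34 (SE 0.078, 95% interval -0.50 to -0.18).

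The summed β subunit level lay in a narrow range while its makeup differed. *Atp1b1*, *Atp1b2* and *Atp1b3* together had 90.7 and 91.2 FPKM in si-NC and 93.1 and 90.2 FPKM in the libraries labelled si-*Itgb6*, and these sums overlapped. *Atp1b1* was 57.6% and 60.0% of the sum in si-NC and 69.1% and 66.9% in the other group. *Atp1b3* was 41.9% and 39.5% against 30.5% and 32.8%. The ratio of *Atp1b1* to *Atp1b3* in FPKM was 1.38 and 1.52 in si-NC and 2.27 and 2.04 in the libraries labelled si-*Itgb6*. *Atp1b2*, a β subunit of brain and glia, was at most 0.479% of the sum in each library. *Fxyd2*, the γ subunit that tunes the pump in the kidney, had 5, 0, 7 and 0 counts.

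**Figure D2:**
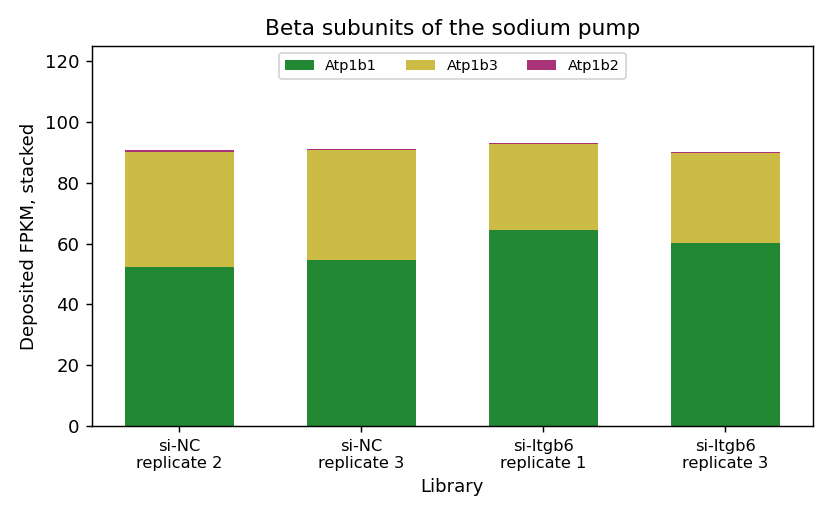
Deposited FPKM of the sodium pump β subunits in each library, with Atp1b1, Atp1b3 and Atp1b2 stacked. The stacked sums lie between 90.2 and 93.1 FPKM, while the Atp1b1 part is larger and the Atp1b3 part smaller in both libraries labelled si-Itgb6.

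*Kcnj2* showed the largest log2 fold change of the 7 genes that passed the filter, from a low level. The gene encodes Kir2.1, a strong inward rectifier that holds the resting potential near that of potassium, and lies at chr11:111066164-111076821 on the plus strand. Its counts were 5 and 13 in si-NC, for replicates 2 and 3, and 33 and 29 in the libraries labelled si-*Itgb6*. In CPM this is 0.307 and 0.753 against 2.13 and 1.76, with no overlap. The means were 0.530 ± 0.315 and 1.95 ± 0.262 CPM (SD, n = 2 each), a 3.60-fold difference and a log2 fold change of 1.85 (SE 0.51, 95% interval 0.80 to 2.89). The size varied with the control that was kept. Leaving out si-NC replicate 3 gave a log2 fold change of 2.64, and leaving out si-NC replicate 2 gave 1.36.

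*Kcnj16* (chr11:110968033-111027968, plus strand) encodes Kir5.1, which conducts only together with Kir4.1 or Kir4.2. It lies 38.2 kb from *Kcnj2* on the same strand, and each is the nearest tested gene of the other on that side. The control libraries, replicates 2 and 3, held 12 and 33 counts, against 31 and 22 in the libraries labelled si-*Itgb6*. The groups overlapped, with a log2 fold change of 0.32 (SE 0.46, 95% interval -0.61 to 1.25). The value was 1.17 with si-NC replicate 3 left out and turned to -0.20 with si-NC replicate 2 left out. The partners of Kir5.1 were close to absent at this depth: *Kcnj10*, for Kir4.1, had 5, 0, 4 and 4 counts, and *Kcnj15*, for Kir4.2, had 0 counts in all 4 libraries. *Kcnj15* lies at chr16:95257558-95300260 on the plus strand, and a count of 0 allows up to 3 counts, or 0.174 to 0.194 CPM per library. This limit covers counting error only. An antisense gene, *Gm49643*, overlaps its exons.

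In the rest of the inward rectifier family, only *Kcnj14* passed the filter, with 12, 5, 15 and 3 counts in the 4 libraries. *Kcnj13*, a weak inward rectifier of transporting epithelia, had 8, 1, 0 and 8 counts and overlaps the exons of *Gigyf2* on the opposite strand. The deposited FPKM of both genes do not follow their counts. For *Kcnj13* the implied length was 339 bases in si-NC replicate 2 and 1271 bases in replicate 3 labelled si-*Itgb6*, and for *Kcnj14* it ranged from 1026 to 2685 bases. No summed FPKM or share of this family is given for that reason.

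*Kcnk5* encodes TASK-2, a two-pore channel that opens at alkaline pH and takes part in bicarbonate transport and volume recovery of proximal tubule cells. It lies at chr14:20140057-20181809 on the minus strand. Its level was 8.59 and 9.73 CPM in si-NC replicates 2 and 3 and 13.2 and 12.8 CPM in the libraries labelled si-*Itgb6*. Both of the latter were above both controls, with means of 9.16 ± 0.808 and 13.0 ± 0.346 CPM (SD, n = 2 each). The log2 fold change was 0.50 (SE 0.16, 95% interval 0.18 to 0.83), or 1.42-fold. The two-pore family summed to 36.9 and 36.7 FPKM in si-NC and 36.5 and 35.7 FPKM in the other group, and *Kcnk5* was 6.91% and 7.84% against 10.7% and 10.4% of it. *Kcnk1*, which encodes TWIK-1, was 76.4% to 81.1% of the family.

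**Figure D3:**
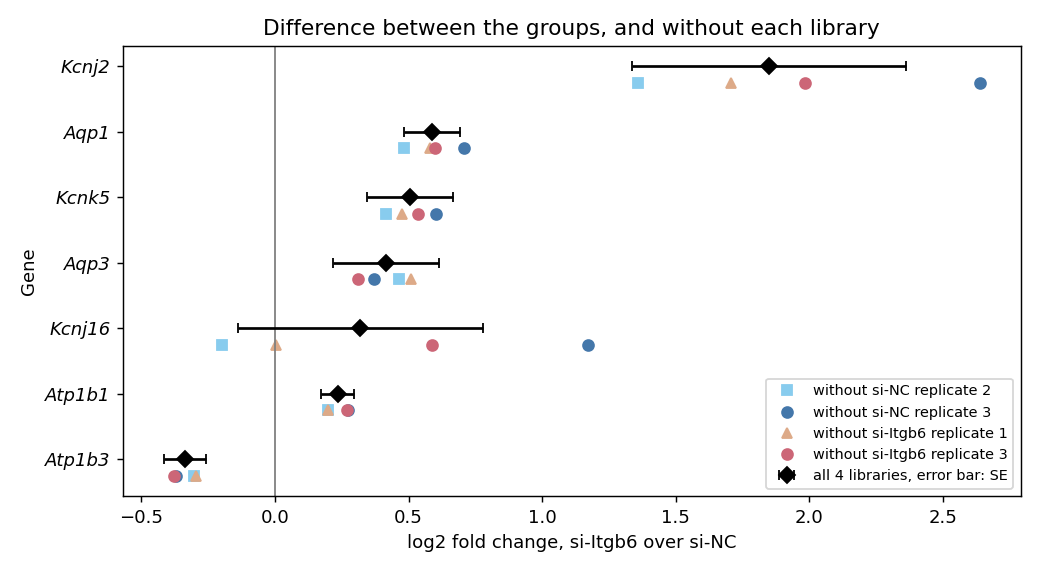
The log2 fold change of the 7 genes that passed the filter, libraries labelled si-Itgb6 over si-NC, with its SE (black) and the value without each library in turn (coloured symbols). Kcnj2 lies between 1.36 and 2.64 without a library, Kcnj16 runs from -0.20 to 1.17, and the others keep their side of 0.

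Relatives of the 9 genes were compared in the same fit. Of 56 other genes of the aquaporin, Na,K-ATPase, inward rectifier and two-pore families, 34 had a count and 12 passed the filter. No gene among them had an adjusted p under 0.05 with edgeR. DESeq2 called none either, but it gave no adjusted p to *Fxyd5*, *Nkain1*, *Fxyd3*, *Kcnj14*, *Kcnk6*, *Kcnk2*, *Kcnk10* and *Atp1b2*. With edgeR, 3 of the relatives had an unadjusted p under 0.05, as did 2160 of all 11727 genes tested. These 3 were *Fxyd5* (log2 fold change -0.38, SE 0.16, edgeR adjusted p = 0.186), *Nkain1* (-0.58, SE 0.26, adjusted p = 0.223) and *Kcnk2* (0.67, SE 0.32, adjusted p = 0.265). *Fxyd5*, known as dysadherin, regulates the pump, *Nkain1* interacts with its β subunit and *Kcnk2* encodes the stretch-gated channel TREK-1. *Nkain1* was at -0.27 without si-NC replicate 2 and at -0.84 without si-NC replicate 3. The median log2 fold change of the 12 was -0.082, with 8 lower and 4 higher. Among the most abundant relatives, *Kcnk1* had -0.092 (SE 0.085, adjusted p = 0.619) and *Kcnk6*, for TWIK-2, had -0.092 (SE 0.16, adjusted p = 0.816). *Fxyd3*, another pump regulator, had -0.072, *Kcnk10*, for TREK-2, had -0.63, *Kcnj14* had 0.16 and *Atp1b2* had -0.37, all with adjusted p-values of 0.533 or more, and each of these 4 and *Kcnk6* changed sign when 1 library or another was left out. The exons of *Fxyd3* overlap *Lgi4* on the opposite strand, and its FPKM do not follow its counts of 46, 38, 42 and 34, with implied lengths of 937, 649, 2604 and 2893 bases.

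Neighbouring genes were described as well, as the nearest tested gene on each side or overlapping. The 17 neighbours that are not among the 9 genes had log2 fold changes from -0.67 to 0.24, and no edgeR adjusted p was under 0.05. Their unadjusted p was under 0.05 for 1 (*Ets2*, 401.8 kb from *Kcnj15*, edgeR adjusted p = 0.167), beside 2160 of all 11727 genes tested. DESeq2 called no neighbour, but it gave no adjusted p to some, among them *Mindy4* and *Map2k6*. The lowest log2 fold change was that of *Mindy4*, 16.2 kb from *Aqp1*, with 31, 41, 14 and 29 counts. It ranged from -1.23 to -0.28 without 1 library. *Saysd1*, 1.5 kb from *Kcnk5*, was at -0.022 on the log2 scale, and *Clns1a*, a chloride current regulator 3.2 kb from *Aqp11*, was at -0.079.

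Lists of functionally related genes gave 3 lower and 5 higher calls among 75 genes tested of 136 listed, beside 2.52% lower and 2.11% higher over all genes tested. The lists were drawn up with earlier results of these libraries known, and the counts within each list are to be read against the same shares. The tonicity list holds genes that respond to osmotic load, among them *Nfat5*, its transporters for organic osmolytes and heat shock proteins. Of its 13 genes tested, 4 were called higher and 1 called lower, and the median log2 fold change was 0.19. Whether called or not, 11 were higher and 2 lower, beside 5869 higher and 5858 lower of all genes tested. *Hspa4l*, an Hsp110 chaperone induced by osmotic stress, had 196 and 224 CPM in si-NC and 280 and 284 CPM in the libraries labelled si-*Itgb6*, a log2 fold change of 0.43 (SE 0.059, edgeR adjusted p = 3.2e-05). *Slc38a2*, a transporter of neutral amino acids, rose by 0.36 (SE 0.070, edgeR adjusted p = 0.00169), and by 0.21 without si-NC replicate 2. *Slc6a6*, the taurine transporter, rose by 0.34 (SE 0.084, edgeR adjusted p = 0.0140).

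*Hspa1a* rose by 0.32 (SE 0.075, edgeR adjusted p = 0.00827), but its estimates were not whole numbers and it has the near-identical copy *Hspa1b*, so its value is uncertain. *Hspa1b* had 624 and 661 CPM in si-NC and 720 and 605 CPM in the libraries labelled si-*Itgb6*, so its groups overlapped. Its log2 fold change was 0.044 (SE 0.057, edgeR adjusted p = 0.745). *Hspa1a* was at 0.20 without si-NC replicate 2, 0.14 without replicate 1 labelled si-*Itgb6* and 0.49 without replicate 3 labelled si-*Itgb6*. *Hspb1*, a small heat shock protein, fell by 0.28 (SE 0.051, edgeR adjusted p = 0.000869), and was at -0.16 with the trends of GC content and length removed. The osmotic factor itself, *Nfat5*, differed by 0.22 on the log2 scale (adjusted p = 0.0628), the inositol transporter *Slc5a3* had 0.30 (adjusted p = 0.0679) and aldose reductase *Akr1b3* had 0.18 (adjusted p = 0.0793). None of the 3 passed the test.

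Among 23 tested regulators of sodium transport, 1 was called higher and 1 called lower, with a median log2 fold change of 0.074. Whether called or not, 16 were higher and 7 lower. *Sgk1*, a kinase that increases sodium channel and pump activity, had 2.45 and 2.08 CPM in si-NC replicates 2 and 3 and 5.17 and 5.77 CPM in the libraries labelled si-*Itgb6*. Both of the latter were above both controls, with a log2 fold change of 1.27 (SE 0.27, edgeR adjusted p = 0.00409). *Sik1*, a salt-inducible kinase that acts on the pump when cell sodium rises, had 49.2 and 47.1 CPM against 40.1 and 36.0 CPM and a log2 fold change of -0.34 (SE 0.091, edgeR adjusted p = 0.0231).

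Of 9 tested genes for sodium-coupled entry, 5 were higher and 4 lower, with a median of 0.043, and 1 was called lower. The called gene was *Slc20a2*, a sodium-phosphate cotransporter, with 20.4 and 16.6 CPM in si-NC and 13.4 and 10.4 CPM in the libraries labelled si-*Itgb6*. Its log2 fold change was -0.64 (SE 0.15, edgeR adjusted p = 0.00824). The 18 genes of volume regulation and the 12 tested among other potassium channels held no adjusted p under 0.05 with edgeR. They had 2 and 1 unadjusted p under 0.05, beside 2160 of all 11727 genes tested, and medians of -0.057 and -0.070. DESeq2 called none of them, where a gene given no adjusted p counts as not called.

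The list calls depended on single libraries. Without si-NC replicate 2 all 8 lost their call, and all genes together kept 6 lower and 7 higher calls. Without si-NC replicate 3 the calls of *Hspb1*, *Sik1* and *Sgk1* were lost, without replicate 1 labelled si-*Itgb6* those of *Slc6a6* and *Hspa1a*, and without replicate 3 labelled si-*Itgb6* those of *Sik1* and *Slc20a2*. With DESeq2 the calls of *Sik1*, *Slc38a2* and *Hspa1a* were lost, and *Sgk1* and *Slc20a2* were given no adjusted p. The log2 fold change also ran with the GC content of transcripts, with a Spearman rho of -0.36 across 11709 genes, which are not independent. With the trends of GC content and length removed, the calls of *Hspb1* and *Sik1* were lost, while the log2 fold change of *Aqp1* was 0.65, of *Atp1b1* 0.23, of *Atp1b3* -0.37, of *Kcnj2* 1.77 and of *Kcnk5* 0.59.

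**Figure D4:**
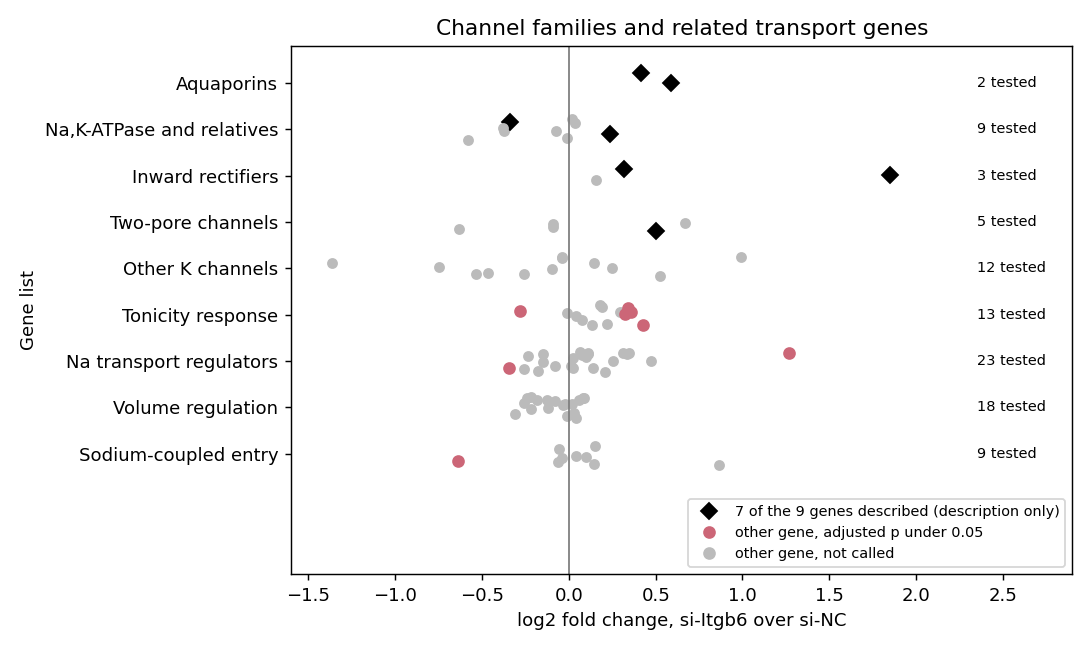
The log2 fold change (libraries labelled si-Itgb6 over si-NC) of each tested gene in the 4 channel and pump families and 5 lists of related genes, 1 point a gene, spread vertically only for legibility. Black diamonds are 7 of the 9 genes described, given without a test; red points are the 8 other genes with an adjusted p under 0.05, and grey points did not pass.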

How the data were processed

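Polyadenylated RNA of 4 libraries was sequenced in pairs without strand information. The authors deposited estimated counts per gene, not normalized and here rounded to whole numbers, and FPKM values computed by the authors from the same libraries. The aligner, counting tool and genome build are not given in the sources used here. The per-sample and summary tables held the same values.

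The 9 genes and all gene lists were chosen with earlier results of these data known. Genes were kept with filterByExpr (minimum count 10, minimum total 15), normalized by TMM and fitted in edgeR 4.0.16 (R 4.3.3) by quasi-likelihood. P-values were adjusted by the Benjamini-Hochberg method over all 11727 genes tested, with a common biological coefficient of variation of 0.0551. A call is an adjusted p under 0.05. SEs come from the log2 fold change and its F statistic, and intervals are at the 95% level. FPKM served for levels per length and shares of a family.

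Named genes are the 9 genes, their relatives and list members with an adjusted p under 0.05 (up to 4 per list), otherwise the relatives highest in FPKM, the nearest tested neighbours, *Itgb6* and *Atp1b2*. A further gene that the rule takes is not reported here. *Fxyd2*, *Nfat5*, *Slc5a3*, *Akr1b3*, *Hspb1*, *Hspa1b* and single marker genes were named after their values were seen. Loci and overlaps are from GENCODE vM21 (GRCm38), and the authors may have used another annotation. Alternatives were DESeq2 1.42.0, RLE factors, library size only, other filters, removal of GC content and length trends (lowess, span 0.3), the study's thresholds and leaving out each library; those for *Itgb6* and neighbouring genes were added after seeing the data.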

Additional observations from a re-analysis of the deposited data

How the results depend on the processing

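The 6 genes with groups apart kept their direction under each alternative run that gave a value; *Kcnj2* gave none with at least 10 counts in every library. Without 1 library their log2 fold changes ran from 0.48 to 0.71 for *Aqp1*, 0.31 to 0.51 for *Aqp3*, 0.20 to 0.27 for *Atp1b1*, -0.38 to -0.30 for *Atp1b3*, 1.36 to 2.64 for *Kcnj2* and 0.42 to 0.60 for *Kcnk5*. Values that changed sign belonged to genes without a call. Without 1 library the ranges were -0.20 to 1.17 for *Kcnj16*, -0.28 to 0.12 for *Fxyd3*, -1.44 to 0.95 for *Kcnj14*, -0.25 to 0.086 for *Kcnk6*, -1.13 to 0.11 for *Kcnk10*, -0.86 to 0.010 for *Atp1b2*, -0.10 to 0.091 for *Itgb6* and -0.057 to 0.013 for *Nme7*.

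Calls over all genes were 156 lower and 146 higher by DESeq2, 104 and 115 with the trends removed, and 610 and 512 by the study's thresholds. Leaving out a library gave 6 to 413 lower and 7 to 368 higher, with a lone library assumed to vary like the other group. Of the related genes, DESeq2 called 1 lower and 2 higher, the trend removal left 1 lower, and both no filter and at least 10 counts in every library gave 8 higher. Without a library these were 0 to 5 lower and 0 to 9 higher. The study's thresholds called 2 lower and 1 higher among the relatives. The cause of these changes was not tested. No paired analysis was possible because the groups share only replicate number 3. With 2 to 9 counts for *Aqp11* and 0 for *Kcnj15*, no difference was detectable at this depth.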
